A study of Mus musculus with 8 samples.

Results

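The genotype difference in the response to lipopolysaccharide (LPS) was measured in open chromatin of mouse macrophages grown from bone marrow, either wild type (WT) or without Lamin-A (KO). The unit was a genomic region: overlapping peaks of all 8 ATAC-seq peak lists on chromosomes 1 to 19 were merged, and a region was kept when every list held a peak in it. This left 30395 of 75252 merged regions (40.4%). Within each list the peaks were ranked by fold enrichment and the rank was written as a percentile, so that 100 percentile points is the strongest peak of that list. The LPS response of a genotype is the mean percentile of its LPS libraries minus that of its untreated libraries, and the genotype difference is the KO response minus the WT response, in percentile points. Each region was named by the protein-coding gene with the nearest gene end within 50 kb of its summit. In all, 25827 regions (85.0%) were near such an end, for 11867 genes.

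LPS, a component of the outer membrane of Gram-negative bacteria, is sensed on macrophages by TLR4 with its co-receptor Ly96 (MD-2). The receptor signals through adaptors and kinases to NF-kB and AP-1, which induce cytokine genes and their own inhibitors, and through Tbk1 and interferon to the interferon-stimulated genes. Lamin-A, made from Lmna, is a filament protein of the nuclear lamina, the layer under the inner nuclear membrane that holds heterochromatin at the nuclear edge.

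The 4 groups were WT untreated, WT LPS, KO untreated and KO LPS, with 2 libraries each. All cells were cultured from bone marrow for 7 days in 60 mm dishes, the treated ones received LPS for 6 h, and all were frozen with 5% DMSO before the transposase step of ATAC-seq. The labels do not state the LPS dose, which part of Lmna was targeted, in which cells it is lost, or whether the replicates came from separate animals, so p-values measure the spread between these libraries, which may be technical. A region in bulk chromatin can gain signal because more cells open it or because it opens further in each cell, and these cannot be told apart. Raised and lowered refer to rank, which is relative to the other peaks of a list. A fall in rank of fold enrichment therefore does not by itself show that chromatin closed.

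The lists held 44504 to 59750 peaks, and those of KO were shorter (44504 to 49661) than those of WT (53942 to 59750). Read totals were not used here, so the depth behind a percentile is unknown. The kept regions ranked lower in the KO lists: their median percentile was 68.7 to 70.6 in the WT libraries and 62.4 to 66.2 in the KO libraries. The lowest median was that of KO LPS 2 (62.4), while the shortest list was KO untreated 1 (64.3). The part of list length in these medians was not tested. The replicate SD over regions was 5.88 points in WT untreated, 6.56 in WT LPS, 7.38 in KO untreated and 7.90 in KO LPS. Tested regions were found at 38 of 40 macrophage identity genes, 4 of 12 B cell genes, 8 of 16 T and NK cell genes, 9 of 15 neutrophil genes, 8 of 12 dendritic cell genes, 4 of 12 erythroid and megakaryocyte genes, 9 of 13 stromal and endothelial genes and 7 of 12 stem and progenitor genes. For comparison, tested regions were found at 11867 of the 20661 protein-coding genes of chromosomes 1 to 19. Open chromatin at Lmna does not show whether the protein was lost, since the targeted part is not stated.

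Promoters of 5 genes described below are printed because a tested region with an unadjusted p under 0.05 for the genotype difference lies over each of them. The windows are RefSeq promoters of GRCm38.p6 (the same assembly as mm10), 250 bases before to 50 after the start site, 5′ to 3′ on the strand of the gene. They are chr5:30012864-30013163 (plus strand, Il6), chr10:19015361-19015660 (minus strand, Tnfaip3), chr10:82047873-82048172 (plus strand, Zfp873), chr1:191717774-191718073 (plus strand, Lpgat1) and chr8:81342312-81342611 (plus strand, Inpp4b). Capitals mark matches, on either strand, to NF-kB (GGGANTTTCC), AP-1 (TGANTCA), an interferon-stimulated response element (GAAANNGAAA) or C/EBP (TTGCNNAA).
Il6: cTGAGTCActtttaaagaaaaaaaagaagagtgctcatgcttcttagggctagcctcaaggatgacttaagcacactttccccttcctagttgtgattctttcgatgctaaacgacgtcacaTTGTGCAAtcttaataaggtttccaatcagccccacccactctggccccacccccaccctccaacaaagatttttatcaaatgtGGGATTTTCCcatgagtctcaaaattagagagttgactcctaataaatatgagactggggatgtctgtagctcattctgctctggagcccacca
Tnfaip3: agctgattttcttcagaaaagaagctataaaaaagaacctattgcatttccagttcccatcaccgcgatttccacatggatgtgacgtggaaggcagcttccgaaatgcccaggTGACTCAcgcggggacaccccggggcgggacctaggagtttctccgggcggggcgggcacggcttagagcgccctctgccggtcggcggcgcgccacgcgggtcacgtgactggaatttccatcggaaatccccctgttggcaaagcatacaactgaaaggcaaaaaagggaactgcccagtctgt
Zfp873: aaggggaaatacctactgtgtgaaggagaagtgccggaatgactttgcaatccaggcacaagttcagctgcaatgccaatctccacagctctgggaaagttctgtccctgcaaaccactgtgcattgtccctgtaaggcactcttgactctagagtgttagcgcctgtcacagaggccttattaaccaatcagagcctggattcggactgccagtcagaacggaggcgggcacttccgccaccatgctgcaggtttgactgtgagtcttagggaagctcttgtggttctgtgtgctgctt
Lpgat1: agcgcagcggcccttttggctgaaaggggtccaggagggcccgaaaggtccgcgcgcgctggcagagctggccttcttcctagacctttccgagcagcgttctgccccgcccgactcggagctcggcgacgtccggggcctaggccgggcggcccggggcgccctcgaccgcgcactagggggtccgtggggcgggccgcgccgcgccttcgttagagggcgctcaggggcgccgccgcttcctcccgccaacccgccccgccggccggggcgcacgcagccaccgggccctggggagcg
Inpp4b: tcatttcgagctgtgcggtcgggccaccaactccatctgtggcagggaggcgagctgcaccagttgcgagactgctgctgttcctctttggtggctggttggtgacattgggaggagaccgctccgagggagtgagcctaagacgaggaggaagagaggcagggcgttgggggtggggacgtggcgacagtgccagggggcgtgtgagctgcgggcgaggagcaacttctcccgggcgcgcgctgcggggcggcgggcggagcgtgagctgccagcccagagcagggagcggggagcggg
In the Il6 window the matches are AP-1 at bases 2 to 8, C/EBP at bases 123 to 130 and NF-kB at bases 207 to 216, counted from the first base printed. The Tnfaip3 window has 1 AP-1 match at bases 115 to 121, and the other 3 windows hold none of these letters. No matches overlapped. Of 20084 mouse promoter windows of this length, 0.4% held the NF-kB letters, 7.1% the AP-1 letters, 3.4% those of the response element and 10.3% those of C/EBP. A match describes letters only and is not evidence of binding. Letters that differ from these patterns were not searched, so a window without a match may still hold a related site.

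LPS responses were called in both genotypes and mostly had the same sign where they were called. In WT, LPS raised 1654 regions (5.44% of those tested) and lowered 1668 (5.49%) at an adjusted p under 0.05 (limma, moderated test on all 8 libraries, Benjamini-Hochberg over all regions). In KO it raised 2593 (8.53%) and lowered 3113 (10.2%). Of the raised regions, 1128 were called in both genotypes, which is 68.2% of the WT calls and 43.5% of the KO calls. Of the lowered regions, 1106 were shared, 66.3% and 35.5%. Of the 6792 regions called in either genotype, 2234 were called in both in the same direction, 2 in opposite directions, and 6430 had the same sign in both, called or not. Over all regions 74.6% had the same sign. Across the 30395 regions the WT and KO responses had a Pearson r of 0.749, a description over regions that share the same libraries. On a log2 scale of fold enrichment the KO calls split differently, 3535 raised and 2804 lowered. The number of calls in a genotype also depended on having both replicates: with 1 of its own libraries left out, 225 to 423 regions were raised and 155 to 504 lowered in WT, and 1534 to 1975 raised in KO. In KO, 3311 were lowered without KO LPS 1 but 1345 to 1706 without any other KO library.

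**Figure D1:**
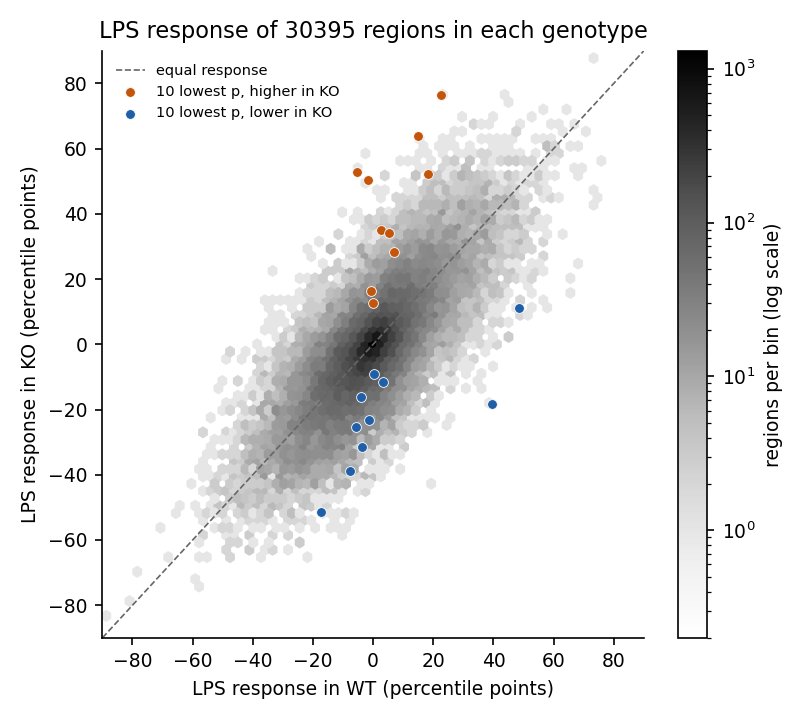
LPS response in WT (x axis) against KO (y axis) in percentile points for 30395 regions, with darker bins holding more regions (log scale). Most bins follow the dashed line of equal response. The coloured points are the 10 regions with the lowest p in each direction, which were chosen for their distance from that line.

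No region passed the test of the genotype difference itself. At an adjusted p under 0.05, limma called 0 regions higher and 0 lower in KO, and the lowest adjusted p was 0.0697. With KO untreated 1 left out 10 regions were called higher, with KO untreated 2 left out 4, and with KO LPS 1 left out 2 were called lower. At an unadjusted p under 0.05, 1101 regions (3.62%) had a higher response in KO and 1339 (4.41%) a lower one, together 8.03%. The median standard error of a difference was 8.70 points, with 2.74 and 13.21 points at the 10th and 90th percentile of regions. Averaging the regions of each gene gave the same outcome: of 5998 genes with at least 2 tested regions, limma called 0 in either direction (lowest adjusted p 0.441), while 164 (2.73%) were higher and 280 (4.67%) lower at an unadjusted p under 0.05, together 7.4%. Within the genotypes, LPS raised 184 genes (3.07%) and lowered 210 (3.5%) in WT, and raised 405 (6.75%) and lowered 674 (11.2%) in KO.

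Every difference was set beside arrangements in which 1 WT and 1 KO library of each treatment exchanged genotype labels. There are 8 such arrangements, and in them the group effects cancel. With the study's labels the SD of the difference over regions was 11.06 points, against 9.51 to 10.35 with swapped labels. The share of regions with a difference of at least 10 points in size was 30.1% (9139 regions, 4025 or 13.2% higher in KO and 5114 or 16.8% lower), against 24.5 to 29.1%. The SD was 1.121 times the mean of the swapped ones. A region was counted as separated when all 4 pairings of a KO LPS with a KO untreated library lay on one side of all 4 WT pairings. This held for 3026 regions above (9.96%) and 3518 below (11.6%), together 21.53%, against 9.89 to 13.19% with swapped labels. Levels that differ between genotypes enter the swapped pairings by construction, so fewer regions can separate there.

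**Figure D2:**
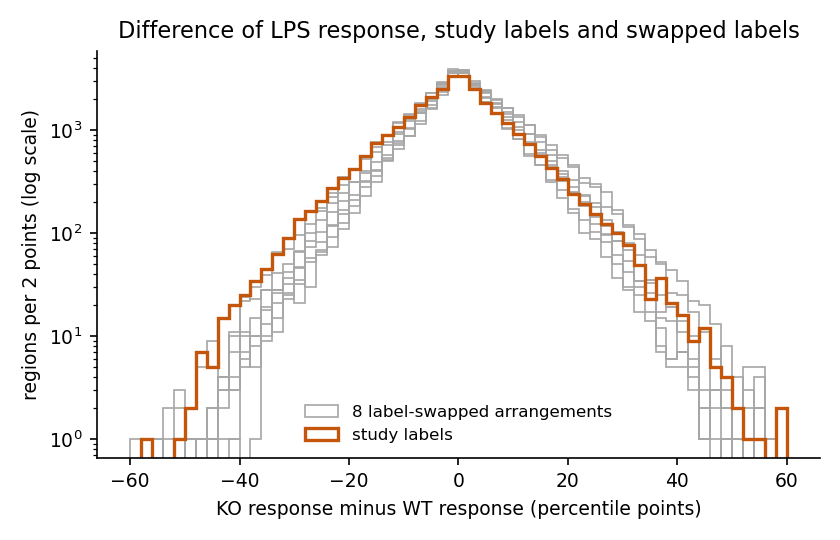
Number of regions (y axis, log scale) in steps of 2 points of the difference between KO and WT response (x axis), for the study's labels (thick line) and 8 label-swapped arrangements (thin lines), whose sign is arbitrary. The study's labels have an SD of 11.06 points, and the swapped labels 9.51 to 10.35.

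The response was wider in KO at both ends of its range, by amounts under 2 of their standard errors. The 1000 regions with the highest LPS response, averaged over the genotypes, had a median response of 35.59 points in WT and 39.72 in KO, with a median difference of 3.86. The difference of their library means was 3.97 ± 2.08 points (SE, 2 libraries per group). Of this, 1.73 points arise by construction, because the replicate spread is larger in KO and the regions were chosen on the average response. For the 1000 regions with the lowest response the medians were -32.86 points in WT, -38.21 in KO and -5.30 for the difference. Their library means differed by -5.39 ± 3.01 points, of which -1.63 arise by the same construction. Leaving out 1 library moved the 2 median differences between 1.82 and 7.81 (7.81 without KO untreated 2) and between -10.83 (without KO LPS 1) and -1.45 (without WT LPS 1). By −log10 p they were 4.96 and -7.95, and where peaks had to cover 50% of a region 2.05 and -4.39. By rank among the kept regions the value for the lowered regions was -2.38. Over all regions the median difference was -0.49 points, and no test was made of these medians.

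Among the regions with a higher response in KO, the lowest p belonged to a region on chromosome 6 with no gene end within 50 kb. Its nearest gene, 131 kb away, was Akr1d1, an enzyme of bile acid synthesis. The region (chr6:37705599-37706146, mm10) stood at percentiles 93.3 and 96.8 in the WT untreated libraries and 98.0 and 97.5 in WT LPS, but at 61.2 and 58.9 in KO untreated and 93.2 and 97.2 in KO LPS. The KO untreated libraries were below all others and the remaining 3 groups overlapped or nearly did. The WT response was 2.72 ± 2.38 points (SE) and the KO response 35.13 ± 2.38, a difference of 32.41 ± 3.37 (limma, adjusted p = 0.0755).

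A region inside Babam2 (chr5:32055588-32056066), which encodes a subunit of BRCA1-associated deubiquitinase complexes, had the same form. Its percentiles were 80.7 and 72.7 in WT untreated, 99.6 and 98.9 in WT LPS, 21.1 and 22.3 in KO untreated, and 98.1 and 98.1 in KO LPS. LPS raised it in both genotypes to the top of the list, from a much lower start in KO. The responses were 22.53 points in WT (adjusted p = 0.0175) and 76.38 in KO (adjusted p = 0.000654), and the difference was 53.85 ± 6.43 (limma, adjusted p = 0.124). Inside Skap2, an adaptor protein of integrin signalling in myeloid cells, a region (chr6:51988043-51988599) went from 91.8 and 94.6 to 98.5 and 98.8 in WT, and from 60.0 and 65.9 to 96.0 and 98.3 in KO. The difference was 28.77 ± 3.46 points (limma, adjusted p = 0.124), again with KO untreated alone at a lower level.

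The other named regions with a higher response in KO lay near or in Shoc1 (a meiotic recombination gene), Dtwd1, Mier3 (a member of a family of HDAC-binding corepressors), Prkag2 (a regulatory subunit of AMP-activated kinase), Inpp4b (a phosphatase of phosphoinositides), Stk31 and Atp8b4 (a phospholipid flippase). Their differences ranged from 12.76 points at Atp8b4 to 58.29 at Mier3, with adjusted p of 0.212 to 0.262. The regions of Dtwd1 and Inpp4b were 66.7 and 267.1 kb from the gene. At Mier3 the percentiles were 78.4 and 78.0 in WT untreated, 71.0 and 74.4 in WT LPS, 25.7 and 34.7 in KO untreated, and 79.7 and 86.4 in KO LPS. LPS raised this region in KO (52.82 points, adjusted p = 0.00178) while its WT value was -5.46 points (adjusted p = 0.619). In all 10 named regions KO rose with LPS at an adjusted p of at most 0.00195, and in all 10 the genotypes were further apart before LPS than after it. Their median KO minus WT level was -34.62 points untreated and -1.31 after LPS.

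Several of these WT values are near 100, where a rank cannot rise further. On the log2 scale of fold enrichment, which has no such ceiling, the Akr1d1 region had a response of 0.18 in WT and 1.04 in KO, the Babam2 region 0.93 and 1.96, and the Mier3 region -0.13 and 1.19. The sign of the difference was the same in all 20 named regions of both directions on this scale, by −log10 p and by rank among the kept regions only. Not all of them were kept under the stricter overlap, where peaks had to cover more of a region. It dropped the regions of Babam2, Mier3, Inpp4b and Stk31, and those of Knstrn and Agtr1b described below. Their differences were therefore not checked there, and that of Mier3 is the largest in size of the 20. The lowest adjusted p over all regions was 0.0984 on the log2 scale, 0.142 by rank among the kept regions and 0.318 by −log10 p.

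Among the regions with a lower response in KO, one inside Lpgat1 (chr1:191756495-191757060), an acyltransferase of phospholipid synthesis, had the lowest p of all. It stood at 96.8 and 95.5 in WT untreated, 91.9 and 93.1 in WT LPS, 97.3 and 98.2 in KO untreated, and 66.5 and 66.3 in KO LPS. The KO LPS libraries were about 25 points or more below the other 6. LPS lowered the region in KO (-31.39 points, adjusted p = 0.000654), the WT value was -3.71 (adjusted p = 0.24), and the difference was -27.68 ± 2.62 (limma, adjusted p = 0.0697). The promoter of Lpgat1 printed above had a response of 10.69 points in WT and -16.67 in KO (unadjusted p = 0.0279), and that of Inpp4b, also printed, -17.29 in WT and -45.39 in KO (unadjusted p = 0.0093).

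At chr6:72428043-72428354, 4.6 kb from Mat2a, the gene of an enzyme that makes S-adenosylmethionine, the response had opposite signs. The percentiles were 14.4 and 14.4 in WT untreated and 53.2 and 54.8 in WT LPS, against 38.4 and 41.5 in KO untreated and 26.9 and 16.6 in KO LPS. LPS raised it in WT by 39.59 points (adjusted p = 0.00684), and the KO value of -18.22 did not pass (adjusted p = 0.0622). The difference was -57.80 ± 8.35 (limma, adjusted p = 0.235), or -36.72 by rank among the kept regions. Near Npy, the neuropeptide Y gene 89.2 kb away, WT rose from 37.4 and 44.6 to 88.9 and 90.4 (adjusted p = 0.00328), while KO stood at 77.0 and 77.7 untreated and at 88.4 and 88.6 after LPS.

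The remaining named regions with a lower response in KO were near Arhgef28 (314.2 kb away), Nfat5 (the transcription factor of osmotic stress), Axin1 (a scaffold of the beta-catenin destruction complex), Knstrn (a mitotic spindle protein), Zfp873, Pknox1 (a homeobox factor) and Agtr1b (an angiotensin II receptor). Their differences ranged from -9.21 at Pknox1 to -34.35 at Agtr1b, with adjusted p of 0.235 to 0.315, and KO fell with LPS in all of them at an adjusted p of at most 0.00368. Of the 20 named regions, only that of Zfp873 lay over a promoter of its gene, printed above. There the percentiles were 89.2 and 91.5 in WT untreated, 94.5 and 92.9 in WT LPS, 94.2 and 93.6 in KO untreated, and 82.3 and 82.2 in KO LPS. The difference was -14.92 ± 2.40 points (limma, adjusted p = 0.262), with KO LPS below the other 3 groups.

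**Figure D3:**
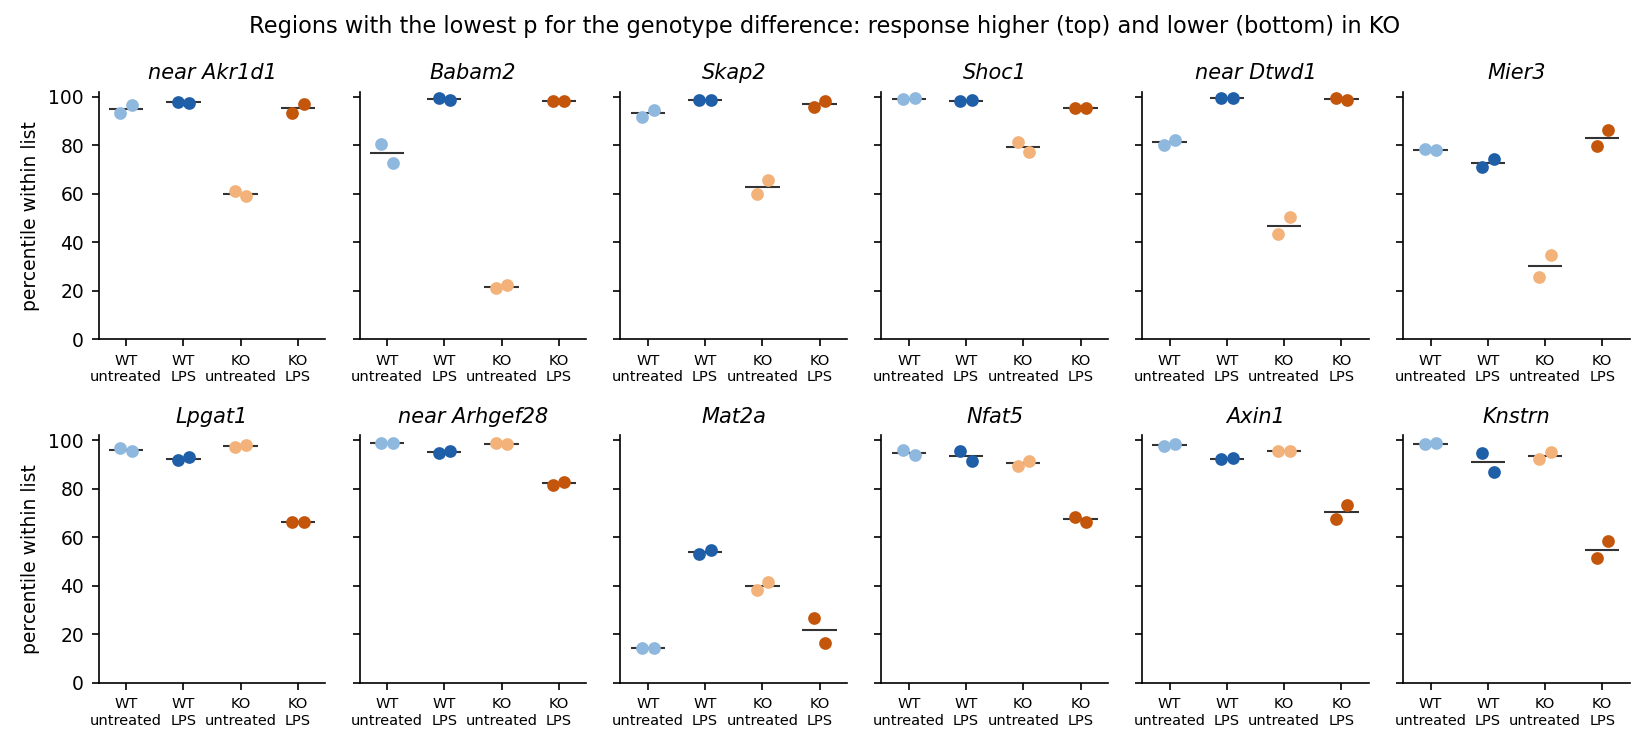
Percentile within the list (y axis) of the 6 named regions with the lowest p in each direction, 1 point per library and a line at the mean of each group. In the top row KO untreated is the lowest group in each panel, and in the bottom row KO LPS is the lowest group except near Mat2a, where WT untreated is.

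The same asymmetry held over all regions with an unadjusted p under 0.05. Where the response was higher in KO, the genotypes were further apart before LPS in 869 of 1101 regions (78.9%), with a median KO minus WT level of -17.11 points untreated and 2.32 after LPS. Where it was lower, this was so in 298 of 1339 (22.3%), with medians of 2.17 untreated and -16.65 after LPS. By these medians, KO was the lower genotype where the gap was larger, in both directions. Over all 30395 regions the gap was wider before LPS in 48.0%, with medians of -2.51 and -2.99 points. The KO lists were also shorter, as given above, and the part of list length in these gaps was not tested.

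Averaged over its regions, the gene with the lowest p among those higher in KO was Hoxb3, a homeobox gene, with 2 regions. Its mean percentile was 32.6 and 34.2 in WT untreated, 30.0 and 28.5 in WT LPS, 15.8 and 20.5 in KO untreated, and 37.9 and 43.2 in KO LPS. LPS raised it in KO (22.39 points, adjusted p = 0.00458) and the WT value was -4.14 (adjusted p = 0.44). The difference was 26.53 ± 4.36 (limma, adjusted p over genes 0.441). Ccnc (cyclin C of the Mediator kinase module), Cpm (carboxypeptidase M), Fam3b, Rfx7 (a transcription factor), Isg20 (an interferon-induced exonuclease) and Cycs (cytochrome c) followed, with differences of 12.15 to 28.26 points and adjusted p of 0.441 to 0.562. In Ccnc and Cycs, 1 region had the opposite sign.

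Tmem176b, a membrane protein of myeloid cells, led the genes with a lower response in KO. Its mean over 2 regions was 90.7 and 93.4 in WT untreated, 75.2 and 76.8 in WT LPS, 87.2 and 86.7 in KO untreated, and 44.8 and 49.8 in KO LPS. It fell with LPS in both genotypes, with -16.10 points in WT (adjusted p = 0.0185) and -39.61 in KO (adjusted p = 0.00112). The difference was -23.51 ± 4.02 (limma, adjusted p = 0.441). Bcl9l (a beta-catenin cofactor), Spatc1, Axin1, Knstrn, Ap4e1 (a subunit of the AP-4 adaptor), Cops4 (a subunit of the COP9 signalosome) and Wdr11 followed, with differences of -26.44 to -11.08 and adjusted p of 0.441 to 0.562. Spatc1 differed in form: it rose in WT (26.86 points, adjusted p = 0.00745), while the KO value was 0.42 (adjusted p = 0.942).

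The genes of LPS signalling were read from 20 lists of 498 genes, in which limma called 0 regions at an adjusted p under 0.05. Beside the background of 3.62% higher and 4.41% lower at an unadjusted p under 0.05, the counts of 3 response lists leaned to the higher side. The inflammatory cytokines and enzymes had 11 higher and 3 lower of 97 regions, the NF-kB pathway and its feedback 11 and 0 of 124, and the interferon response 11 and 3 of 122. Their median differences were 2.80, 1.66 and 2.69 points, against -0.49 over all regions. These 3 medians stayed above 0 by rank among the kept regions (2.70, 2.71 and 3.93), by −log10 p (1.35, 0.37 and 2.26) and on the log2 scale, and with any 1 library left out (1.42 to 3.23, 1.14 to 2.29 and 1.88 to 3.75).

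Toll-like receptor signalling and its brakes had 6 higher and 5 lower of 113 regions and a median of 1.92 points, which was -0.27 by −log10 p and -0.26 without KO LPS 1. Immediate early and AP-1 factors had 6 and 1 of 132 (median 0.39), macrophage identity 5 and 5 of 183 (-0.36), alternative activation and scavenging 6 and 4 of 90 (-1.09), antigen presentation and co-stimulation 2 and 3 of 85 (0.02), and cholesterol, lipid and iron handling 3 and 1 of 79 (1.13). Glycolysis and the hypoxia response had 1 and 1 of 83 (0.38), the cell cycle and replication 2 and 3 of 66 (-1.18), the nuclear envelope and lamina 1 and 0 of 52 (-0.76), and ribosomal proteins 1 and 3 of 44 (-2.23). The 7 lists of other cell types had 7 to 19 tested regions each, with 0 to 2 higher and 0 to 2 lower. Their medians ran from -3.55 points for stromal and endothelial to 3.61 for stem and progenitor genes, with -3.49 for B cell, -0.87 for T and NK cell, -1.63 for neutrophil, -0.41 for dendritic cell and 0.41 for erythroid and megakaryocyte genes.

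**Figure D4:**
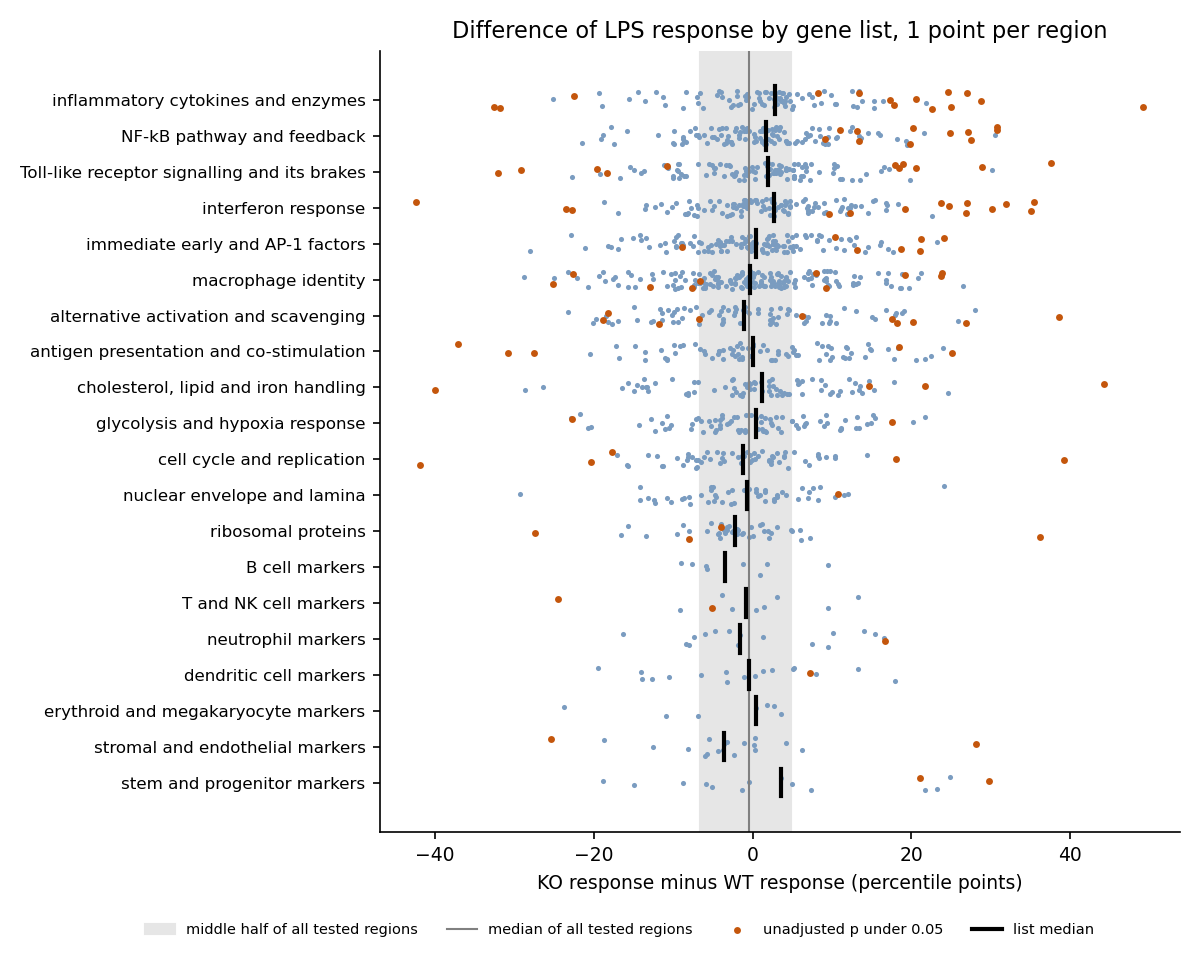
Difference between KO and WT response (x axis, percentile points) of each tested region of the 20 gene lists (y axis), with regions at an unadjusted p under 0.05 enlarged, a thick bar at each list's median, and a band over the central 50% of all regions. The bars of the inflammatory, NF-kB and interferon lists lie at 2.80, 1.66 and 2.69 points, against -0.49 for all regions.

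Among the inflammatory genes, the region with the lowest p lay at an end of Acod1 (chr14:103046472-103047252), which encodes the enzyme that makes itaconate in activated macrophages. It stood at 47.4 and 54.7 in WT untreated, 45.5 and 37.7 in WT LPS, 17.2 and 27.4 in KO untreated, and 59.4 and 64.6 in KO LPS. LPS raised it in KO (39.70 points, adjusted p = 0.0067), and the WT value was -9.49 (adjusted p = 0.437). The difference was 49.18 ± 9.83 points (limma, adjusted p = 0.36), or 30.13 by −log10 p. KO was thus the lowest group before LPS and the highest after it. Inside Ptges, the inducible prostaglandin E synthase, a region stood at 81.2 and 81.4 in WT untreated and 94.7 and 93.9 in WT LPS, and at 49.0 and 59.7 in KO untreated and 95.1 and 93.7 in KO LPS (difference 26.97 points, adjusted p = 0.363).

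The single tested region of Il6, the interleukin-6 gene, covered its promoter (chr5:30012705-30013479), with the NF-kB, C/EBP and AP-1 letters printed above. Its percentiles were 68.5 and 67.4 in WT untreated, 76.2 and 76.1 in WT LPS, 56.3 and 65.1 in KO untreated, and 86.1 and 87.3 in KO LPS. It rose in KO by 26.01 points (adjusted p = 0.00797), while the WT value was 8.21 (adjusted p = 0.316). The difference was 17.80 ± 6.77 points (limma, unadjusted p = 0.0275, adjusted p = 0.567). All 4 groups were apart, with KO at both extremes.

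Tnf, the tumour necrosis factor gene, had 2 tested regions with differences of opposite sign. Inside the gene the percentiles were 71.0 and 62.6 in WT untreated, 43.6 and 42.3 in WT LPS, 70.1 and 74.6 in KO untreated, and 20.8 and 11.4 in KO LPS. The loss with LPS passed in KO (-56.29 points, adjusted p = 0.00226) and narrowly missed in WT (-23.81, adjusted p = 0.0555), a difference of -32.49 ± 9.58 (limma, adjusted p = 0.468), or -15.82 by −log10 p. At the end of the gene, 0.1 kb away, the difference was 15.23 points (adjusted p = 0.741). For Nos2, the inducible nitric oxide synthase, the region at the gene end rose in both genotypes, by 32.92 points in WT (adjusted p = 0.0398) and 43.41 in KO (adjusted p = 0.01). A region 33.6 kb away had values of -11.03 in WT and 9.47 in KO, neither of which passed.

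Il1b, the interleukin-1 beta gene, showed the smallest differences of the cytokine genes examined one by one. Its 4 tested regions had differences between -2.92 and 3.47 points (lowest adjusted p 0.849). The region 4.3 kb from the gene went from 81.2 and 89.0 to 4.7 and 2.7 in WT, and from 84.0 and 86.8 to 9.6 and 5.4 in KO. It fell in both, with -81.36 points in WT (adjusted p = 0.00328) and -77.89 in KO (adjusted p = 0.001). The difference of 3.47 had a standard error of 8.96, so a genotype difference of about that size would not be detectable here.

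Several chemokine and cytokine genes had regions that LPS lowered in WT with smaller values in KO. At the end of Ccl3 the WT response was -26.73 points (adjusted p = 0.00582) and the KO value -9.44 (adjusted p = 0.114). For Il12b, a subunit of interleukins 12 and 23, the region 0.9 kb from the gene had -37.17 in WT (adjusted p = 0.0124) and -12.55 in KO (adjusted p = 0.227). A region 10.6 kb from Ccl5 had -25.11 in WT (adjusted p = 0.0403) and -2.57 in KO (adjusted p = 0.825). One 1.1 kb from Il10, an anti-inflammatory cytokine, had -35.12 in WT (adjusted p = 0.0375) and -6.41 in KO (adjusted p = 0.663), with a difference of 28.71 that was 18.42 without WT LPS 2 and 39.00 without WT LPS 1. The differences of these 4 regions were 17.29 to 28.71 points with adjusted p of 0.483 to 0.619 (limma). A pass in WT and not in KO therefore does not show that the genotypes differ. For Il10 and Ccl5 the region given was that of lowest p. All 4 tested regions of Il10 had differences of -1.98 to 28.71 points (median 0.58). Those of Ccl5, also 4, had differences of -8.44 to 22.54 (median 12.76). At an unadjusted p under 0.05, the inflammatory regions with a lower response in KO were those of Tnf, Tnfsf9 (-31.83 points) and Ccl2 (-22.44).

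In the NF-kB list the gene with the most regions at an unadjusted p under 0.05 was Tnfaip3, which encodes A20, a ubiquitin-editing inhibitor of NF-kB induced by NF-kB itself. Of its 8 tested regions, 7 had a positive difference, 3 of them at an unadjusted p under 0.05, with a median of 12.73 points (lowest adjusted p 0.443). Inside the gene, 5.9 kb from an end (chr10:19009187-19009771), the percentiles were 88.6 and 87.7 in WT untreated, 31.6 and 37.6 in WT LPS, 76.7 and 79.0 in KO untreated, and 56.1 and 54.2 in KO LPS. LPS lowered it in both genotypes, by -53.52 points in WT (adjusted p = 0.00359) and -22.70 in KO (adjusted p = 0.025), a difference of 30.82 ± 8.01 that was 9.98 by −log10 p. At the promoter printed above, with its AP-1 letters, the percentiles were 86.3 and 84.8 in WT untreated, 42.7 and 38.3 in WT LPS, 84.4 and 82.7 in KO untreated, and 52.0 and 65.4 in KO LPS. That region also fell in both (-45.04 and -24.86 points, adjusted p = 0.00552 and 0.0238), with a difference of 20.19 ± 8.65. The untreated libraries of both genotypes were close there, and KO LPS lay above WT LPS. In a region 38.4 kb away the gap was instead before LPS, where KO stood at 72.9 and 82.1 and WT at 94.2 and 88.0.

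The other NF-kB genes with a region at an unadjusted p under 0.05 all had a higher response in KO there. They were Rel (a subunit of NF-kB, 9.08 points), Tbk1 (the kinase upstream of interferon induction, 19.75), Traf1 (30.78), Ikbkb (the catalytic subunit of the kinase of the NF-kB inhibitors, 27.06), Bcl2a1b (a survival factor, 10.99), Tank (27.46), Map3k8 (24.85) and Nfkbiz (an atypical NF-kB inhibitor protein, 13.34). Near the end of Tbk1 the percentiles were 6.9 and 4.9 in WT untreated, 34.3 and 39.1 in WT LPS, 5.6 and 7.1 in KO untreated, and 56.2 and 57.6 in KO LPS. LPS raised it in both genotypes (30.75 points in WT, adjusted p = 0.00937, and 50.50 in KO, adjusted p = 0.00145) from overlapping untreated levels. At the end of Ikbkb the start differed, with 59.2 and 47.8 in WT and 31.3 and 20.9 in KO, and the libraries after LPS overlapped at 64.7 and 68.6 and at 68.4 and 64.2. Bcl2a1b belongs to a family of near-identical copies, so its reads may come from more than 1 gene.

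Nfkbia, the first inhibitor of NF-kB, had 7 tested regions with differences of -8.69 to 21.58 points (median 10.67, lowest adjusted p 0.641), and Nfkb1 had 6 with -0.65 to 30.50 (median 11.46, lowest adjusted p 0.649). In each, 5 regions were positive and none reached an unadjusted p under 0.05. For the co-receptor of TLR4, a tested region lay inside Ly96, 6.6 kb from an end. The region stood at 66.9 and 81.1 in WT untreated, 81.6 and 72.9 in WT LPS, 23.4 and 24.5 in KO untreated, and 65.5 and 64.1 in KO LPS. It rose in KO (40.88 points, adjusted p = 0.00598), with a WT value of 3.26 and a difference of 37.62 (adjusted p = 0.443). Here KO was the lower genotype before and after LPS. The list of Toll-like receptor signalling was split, with 6 regions higher and 5 lower at an unadjusted p under 0.05. Among the lower ones were regions of Tlr1 (-29.09 points) and Tlr2 (-19.54), while another region of Tlr1 was higher (28.82).

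In the interferon list, 11 regions had a higher response in KO at an unadjusted p under 0.05, and in 9 of these the genotypes were further apart before LPS, a share of 81.8% against 78.9% for all regions higher at that p. At Ifitm3 (chr7:141010482-141011107), a membrane protein that restricts virus entry, the percentiles were 34.2 and 37.1 in WT untreated, 29.9 and 26.6 in WT LPS, 13.0 and 4.0 in KO untreated, and 32.3 and 40.6 in KO LPS. LPS raised it in KO (27.97 points, adjusted p = 0.0127), the WT value was -7.38 (adjusted p = 0.473), and the difference was 35.36 ± 8.22 (limma, adjusted p = 0.426). The only low group was KO untreated. At Gbp2 (chr3:142620139-142620950), a guanylate-binding protein, they were 73.7 and 67.9 in WT untreated, 71.4 and 63.4 in WT LPS, 42.8 and 46.7 in KO untreated, and 77.0 and 75.7 in KO LPS. It also rose in KO (31.65 points, adjusted p = 0.00847) with a WT value of -3.38 (difference 35.03, adjusted p = 0.443).

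Ifit2, an RNA-binding antiviral protein, had the lowest p of the list in a region inside the gene, with 91.8 and 94.2 in WT untreated, 88.4 and 87.7 in WT LPS, 74.0 and 76.1 in KO untreated, and 86.5 and 91.8 in KO LPS (difference 19.13 ± 3.56, adjusted p = 0.32). Isg15 (a ubiquitin-like modifier), Ifit3, Isg20, Ddx58 (the RNA sensor RIG-I), Irgm1 (an immunity-related GTPase), Gbp7 and Irf2 had a higher response in KO at their gene ends. The differences were 9.58 to 30.18 points, with adjusted p of 0.457 to 0.618. None of those 7 rose in KO at an adjusted p under 0.05. At Ifit3 the KO LPS libraries, 52.2 and 48.4, were still below those of WT LPS, 68.2 and 58.9. The exceptions in direction were distal regions of Parp14 (-42.31 points), Irf1 (-22.68) and Samd9l (-23.47). The Parp14 region rose in WT (41.15 points, adjusted p = 0.0154), from 35.6 and 32.5 to 74.6 and 75.8, while in KO it stood at 71.2 and 88.8 without LPS.

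Taking all 45 interferon regions within 1 kb of a gene end, a subset chosen after these values had been seen and given no test, 35 (77.8%) had a positive difference and 9 were higher at an unadjusted p under 0.05, with 0 lower. Among all 8788 regions at gene ends, 44.5% were positive, and 176 (2.0%) were higher and 325 lower. The median difference of the 45 regions was 4.69 points against -0.62. It stayed above that of all gene ends in every scaling and with each library left out in turn (3.70 to 6.07). The gap between genotypes was wider before LPS in 25 of the 45 (55.6%), against 46.1% of all gene ends. The median KO minus WT level of the 45 regions was -4.74 points untreated and 2.36 after LPS, against -1.02 and -1.75 at all gene ends.

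**Figure D5:**
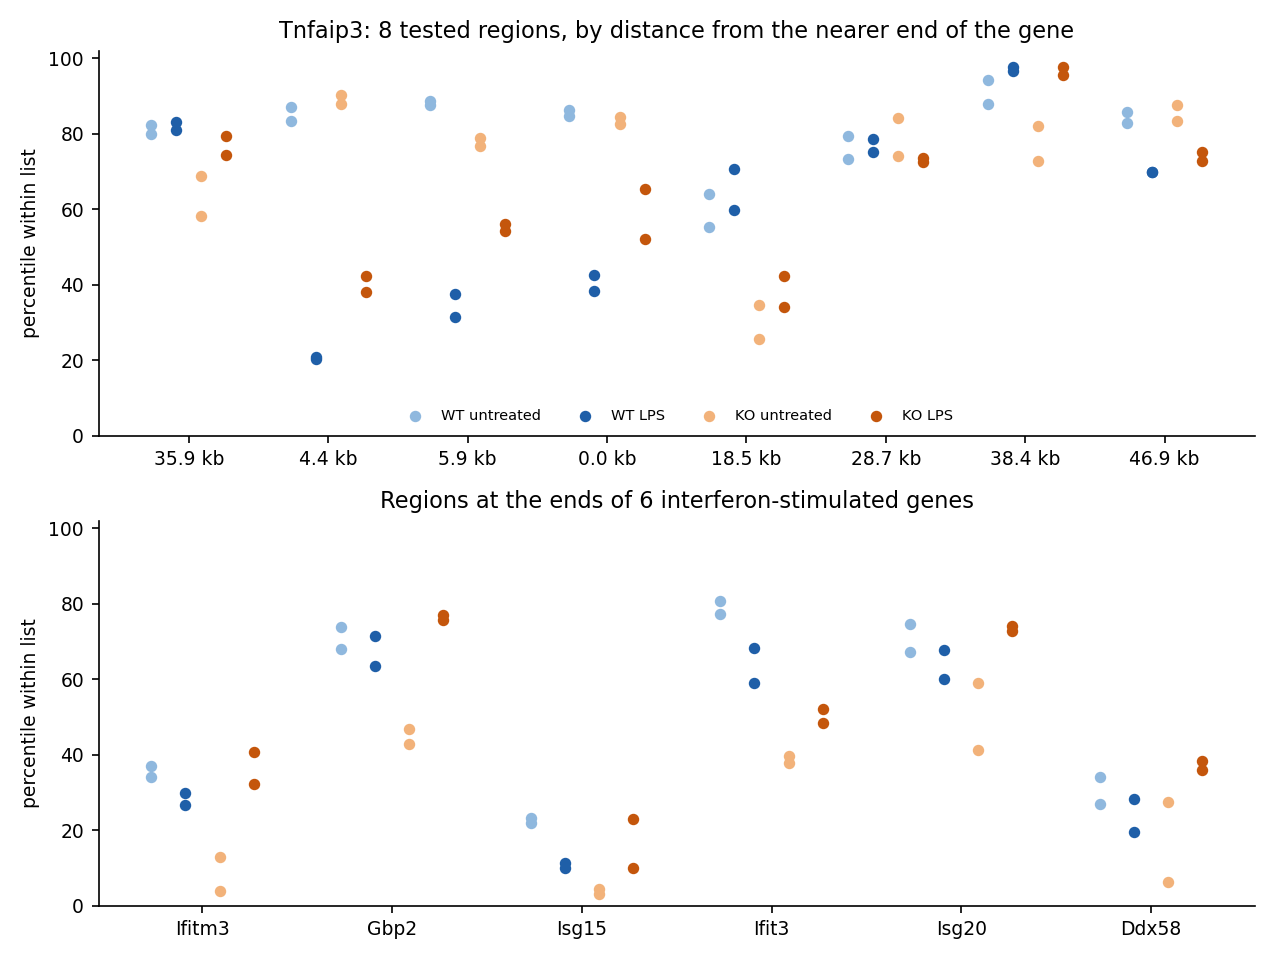
Percentile within the list (y axis) of every library, for the 8 tested regions of Tnfaip3 ordered along the chromosome and labelled by distance from the nearer end of the gene (top), and for the gene-end regions of 6 interferon-stimulated genes (bottom). In the 3 regions of Tnfaip3 nearest the gene, WT LPS is the lowest group, and at Ifitm3, Gbp2, Isg15, Ifit3 and Isg20 KO untreated is.

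Genes of other functions held some of the largest single values, which were picked as the lowest p of each list. At 1.8 kb from Ch25h, the cholesterol 25-hydroxylase induced by interferon, WT fell from 59.1 and 61.7 to 14.2 and 11.5 (adjusted p = 0.00438), whereas KO stood at 26.8 and 29.1 untreated and at 23.1 and 26.2 after LPS (difference 44.21 ± 7.64, limma, adjusted p = 0.301). Near Il4ra, the interleukin-4 receptor, WT fell from 57.6 and 64.3 to 12 and 11.3 (adjusted p = 0.00503), and KO stood at 53.1 and 60.9 untreated and 44.5 and 48.0 after LPS (difference 38.61, adjusted p = 0.431). The Il4ra difference was 9.71 by −log10 p and 24.84 by rank among the kept regions. The KO gap thus lay before LPS at Ch25h and after it at Il4ra. Near Icosl, a co-stimulatory ligand, WT rose from 40.5 and 41.9 to 82.0 and 76.1 (adjusted p = 0.00828), and KO had 65.6 and 74.6 untreated and 73.6 and 68.3 after LPS (difference -37.03, adjusted p = 0.411).

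In the remaining lists the lowest p belonged to Pik3ap1 (a signalling adaptor, -18.37 points), Klf2 (a factor that restrains inflammatory genes, 24.06), Trem2 (a lipid-sensing receptor, -12.91), Pfkp (a glycolytic enzyme, 17.55), Rrm2 (a subunit of ribonucleotide reductase, -41.81), Lbr (the lamin B receptor, 10.77) and Rps14 (a ribosomal protein, 36.16). Their adjusted p were 0.443 to 0.596. In the lists of other cell types it belonged to Ms4a1 (-5.76), Cd3d (-5.05), S100a8 (16.63), Xcr1 (7.23), Gp1ba (-23.74, or -12.19 without KO LPS 1 and -35.29 without KO LPS 2), Acta2 (-25.33) and Gata2 (21.04), with adjusted p of 0.483 to 0.741.

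Among genes that set macrophage identity, a region at the end of Cebpb, which encodes a C/EBP factor, fell with LPS in KO (-31.73 points, adjusted p = 0.00795) with a WT value of -9.17 and a difference of -22.56 (unadjusted p = 0.0231). Regions of Cx3cr1 (a chemokine receptor, 23.78 points) and Zeb2 (a transcription factor, 8.02) had a higher response in KO at an unadjusted p under 0.05. Those of Fcgr2b, an inhibitory antibody receptor, went both ways (23.67, 9.18 and -25.17). Spi1, which encodes the myeloid master factor PU.1, had 7 tested regions with differences of -9.74 to 13.26 points, Csf1r, the receptor of the macrophage growth factor, 5 with -10.28 to 7.60, and Irf8 9 with -13.37 to 12.90. Myc had 2, at 1.78 and 17.64, the second being 6.01 without WT LPS 2 and 29.27 without WT LPS 1. In none of these 4 genes did a region reach an unadjusted p under 0.05. Lmna itself had 6 tested regions with differences of -14.18 to 8.46 (lowest adjusted p 0.675), and at its end, 0.2 kb away, the libraries were at 75.7 and 70.8 in WT untreated, 83.1 and 82.2 in WT LPS, 84.8 and 83.8 in KO untreated, and 85.2 and 89.2 in KO LPS.

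Low p-values for the difference were less frequent at gene ends than far from them. An unadjusted p under 0.05 was found in 5.70% of the 8788 regions within 1 kb of a gene end and 5.28% of the 7102 over a RefSeq promoter, but in 9.62% of the 13614 over 10 kb away and 10.31% of the 4568 with no gene end within 50 kb. The share was 6.16% of the 617 regions of chromosome 3 within 20 Mb of Lmna and 4.64% of the 1919 regions at least 1 kb wide. These shares are descriptions, since neighbouring regions share the libraries. Regions outside the kept set were not given a difference. Of these 44857 regions, 1813 were held by both WT LPS lists and no other, and 284 by both KO LPS lists and no other. A further 1309 were called in all but the KO LPS libraries, against 63 in all but WT LPS. The KO LPS lists were shorter (49661 and 45442 peaks) than those of WT LPS (59750 and 55357). The part of list length in these counts was not tested. Regions called in 7 of the 8 lists numbered 4740 and had a median percentile of 36.8, against 65.7 for the kept ones.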

How the data were processed

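ATAC-seq peak lists of 8 libraries, called per library and not pooled, were used as deposited. BWA 0.7.12, MACS2 and the mm10 build are listed in the submitters' processing notes. Aligner settings, filters and read totals are not given in the sources used here. The deposited lists give each peak a fold enrichment (a ratio made by the authors' peak caller), a −log10 p and a −log10 q, and a deposited score derived from the p. The summit offset in bp is also the authors'. LPS libraries were grouped by title and treatment field, since their source names also carry the other treatment's word.

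Peaks on chromosomes 1 to 19 were ranked within each list and merged at 1 bp of overlap; where a list had several peaks in a region, the highest was used. The percentiles were fitted with limma 3.58.1 (R 4.3.3; 4 group means, eBayes with trend, 4 residual degrees of freedom before moderation), with Benjamini-Hochberg adjustment over all regions or genes. The code was tested on simulated data. Genes and promoters came from RefSeq GRCm38.p6, of whose 20661 protein-coding genes 16456 have a promoter window. Figures used matplotlib 3.10.9.

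Named were the 10 regions (1 per gene) and 8 genes of lowest p in each direction, the region of lowest p in each of 20 gene lists, and 14 fixed genes; other genes in the lists are named where a region had an unadjusted p under 0.05, which was chosen after their values were seen. One gene that this rule names is not reported here. The members and lists were chosen with earlier results of these data known. Alternatives were another ranked value, a log2 scale, ranks among the kept regions, a stricter overlap or peak threshold, 1 peak per list, no variance trend, a replicate block, other gene assignments and leaving out each library.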

Additional observations from a re-analysis of the deposited data

Results flagged for a closer look

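In 11 of the named regions all 4 WT pairings of an LPS with an untreated library had one sign and all 4 KO pairings the other. The KO response minus the WT response in these was 17.14 points at Shoc1, 58.29 at Mier3, 49.18 at Acod1, 19.13 at Ifit2, 24.06 at Klf2, 10.77 at Lbr and 20.51 at Nos2. It was -57.80 at Mat2a, -14.92 at Zfp873, -12.91 at Trem2 and -14.18 at Lmna. The difference itself was tested with limma in each and did not pass adjustment in any. The regions had been named for a low p or by a fixed gene, so this form is partly set by the choice. No share over all tested regions is given for this form, so the 11 cannot be read against a background.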

How the results depend on the processing

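No planned change of scale, overlap, peak threshold, variance model or gene assignment gave a region or gene at an adjusted p under 0.05. With 1 library left out, 0 to 10 regions were higher in KO (10 without KO untreated 1, 4 without KO untreated 2) and 0 to 2 lower (2 without KO LPS 1), and 0 genes; the lone library is then assumed to vary like the others. With adjustment over the 8979 regions with a called mean LPS response only, an alternative chosen after seeing the data, 3 regions were higher (Babam2, Akr1d1 and Skap2) and 1 lower (Lpgat1), with adjusted p of 0.0206 to 0.0367. Deviations of equally numbered replicates had correlations of -0.076 to 0.036 between groups. This cannot show whether they share an animal or batch, since a small shared effect would give similar values. With a replicate block limma called 0 regions and 0 genes, with 1017 regions higher and 1227 lower at an unadjusted p under 0.05. The median difference of the 1000 strongest raised regions was 1.82 to 7.81 and that of the lowered ones -10.83 to -1.45 with a library left out.

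Regions raised by LPS in WT numbered 3006 by −log10 p, 2737 on the log2 scale and 1089 at a −log10 p of at least 20; in KO they were 4017 by −log10 p and 1692 at that threshold. With a library left out they ran from 225 to 1828 raised and 155 to 2022 lowered in WT, and from 1534 to 2176 and 1345 to 3311 in KO. The difference of the Il1b region 2.3 kb from the gene, 2.70 points, was -0.31 by −log10 p and -0.41 (without WT LPS 1) to 5.81 with a library left out. The causes were not tested. The SD ratio to swapped labels could not be computed with a library left out. Of the 54 named regions, the difference moved by over 1.5 times in 10 with a library left out, in 9 by −log10 p and in 11 by rank among the kept regions. Besides those given in the report, the first were regions of Nfkb1 (19.45 to 41.56, without KO untreated 1 and 2), Spi1 (4.42 to 22.11, without WT untreated 1 and 2), Csf1r (-17.73 to -2.82, without KO LPS 2 and 1), Irf8 (-6.97 to -3.13, without KO LPS 1 and 2), Ms4a1 (-9.01 to -2.50) and Xcr1 (4.30 to 10.17), both without KO untreated 2 and 1. Of all other values for single regions, genes and lists, 1362 kept their direction and side of the threshold, 32 moved and 9 newly passed. Named regions dropped by the stricter overlap have no value for it in these counts. Besides those given in the report, they include regions of Acod1, Ch25h, Il10 and Nfkb1. With 2 libraries per group and unknown depth, differences under about the median standard error of 8.70 points are not resolved. That value is not a limit above which differences are resolved. Even 58.29 points at Mier3 did not pass adjustment (limma, adjusted p = 0.235).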
